A study of Mus musculus with 4 samples.

Results

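The genes described here are 9 members of the p53 pathway that act mainly outside cell death: Trp53, Mdm2, Cdkn1a, Ccng1, Phlda3, Eda2r, Zmat3, Trp53inp1 and Sesn2. They were chosen by symbol, and each symbol matched 1 of the 32285 gene rows. They were followed through 4 single-cell RNA libraries of mouse thymic invariant natural killer T (iNKT) cells, a T cell lineage whose shared receptor sees lipid on CD1d. There were 2 libraries of wild-type mice (WT 1 and WT 2) and 2 of mice labelled knockout for ACC1 (ACC1 KO 1 and ACC1 KO 2), all from thymus at 6 to 8 weeks of age and with no treatment named. ACC1, encoded by Acaca, makes the malonyl-CoA used in fatty acid synthesis, and the series asks about its part in the survival of these cells. Cells were enriched on magnetic columns and then sorted for CD3 and a CD1d tetramer. The deleted part of Acaca, the promoter or Cre line behind the deletion, and whether the libraries stem from separate or pooled animals are absent from the labels.

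In textbook terms, p53 (Trp53) is a transcription factor held low by Mdm2, a ubiquitin ligase that is itself a p53 target. When DNA damage or other stress stabilises the protein, it turns on genes that halt the cell cycle (Cdkn1a), that feed back on p53 (Mdm2, Ccng1), that blunt Akt signalling (Phlda3) or that tune RNA, autophagy and redox state (Zmat3, Trp53inp1, Sesn2). In developing T cells p53 is known mostly from the checkpoint on DNA breaks made during receptor gene rearrangement. Its control lies largely in protein stability, which RNA counts do not measure.

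After filters, 27045 iNKT cells remained, with 4611 in WT 1, 9020 in WT 2, 5611 in ACC1 KO 1 and 7803 in ACC1 KO 2, and summed totals of 23688364, 63995700, 28731964 and 65998688 unique molecular identifiers (UMIs, 1 per captured RNA molecule). Levels below are such sums as CPM, the usual scaling to the library's total. Clusters were built without the members and the p53 lists, and named from marker genes as iNKT1-like (6 clusters), iNKT2-like, iNKT17-like, iNKT0-like (the early stage), interferon-responding and dividing (3 clusters). Both libraries numbered 1 had Ddx3y, a Y-linked gene (82.2 and 77.1 CPM), with fewer UMIs per cell (medians of 4654 and 4479), and both numbered 2 had Xist (596 and 664 CPM) with medians of 6224.5 and 7359, so the number, sex and depth cannot be told apart. Each genotype has 1 library of each number, so differences are also given within numbers. Any pair of libraries shared 10 to 27 cell barcodes, at most 0.327% of the smaller library. Acaca stood at 34.1 and 31.6 CPM in WT and 47.0 and 60.8 in ACC1 KO, and 3′ counts outside a deleted part check nothing.

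Promoter sequence is shown first because the members are read as p53 targets. RefSeq promoters (build GRCm38.p6, 250 bases before to 50 after a start) held 8 starts of 7 members, with no entry used for Zmat3 and Trp53inp1. They were searched for the p53 decamer, the motif bound by one p53 dimer; it is its own reverse complement, so one strand covers both. It occurred in 8.36% of all 32851 promoters of that length (2745), and 2 decamers no more than 13 bases apart in 24 of them (0.0731%). Of the 7 members 4 held a decamer, and these stretches are printed 5′ to 3′ on the gene's strand with the decamers in capitals.

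Trp53: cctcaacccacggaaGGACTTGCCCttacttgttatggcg

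Mdm2: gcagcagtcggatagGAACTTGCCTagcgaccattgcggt

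Cdkn1a: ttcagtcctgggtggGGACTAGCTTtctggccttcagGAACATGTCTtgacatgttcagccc

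Ccng1: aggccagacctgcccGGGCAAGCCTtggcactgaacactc

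The Trp53 stretch lies at chr11:69580269-69580308 on the plus strand, with its decamer starting 75 bases before the RefSeq start (position -75). The Mdm2 stretch lies at chr10:117710920-117710959 on the minus strand, with its decamer at -186. The Cdkn1a stretch lies at chr17:29090891-29090952 on the plus strand and holds 2 decamers, at -73 and -51, with 12 bases between them. The Ccng1 stretch lies at chr11:40755447-40755486 on the minus strand, with its decamer at -185. All 4 stretches lie upstream of the RefSeq start that they are counted from. The second start of Cdkn1a and the promoters of Phlda3, Sesn2 and Eda2r held no match. A match describes letters and not a bound site, and no match speaks only of this window.

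Over the iNKT cells of all 4 libraries, the regulator and its ligase gave many UMIs (24407 for Trp53 and 9404 for Mdm2) and the arrest gene few (552 for Cdkn1a). Gene positions are those of GENCODE vM21 (mm10). Trp53 (chr11:69580359-69591873) stood at 143 CPM in WT 1, 128 in WT 2, 151 in ACC1 KO 1 and 129 in ACC1 KO 2. Both libraries numbered 1 were above both numbered 2, whatever the genotype. Mdm2 (chr10:117688875-117710758) stood at 57.0 and 49.6 CPM in WT and at 55.6 and 49.8 in ACC1 KO, again in the order of the library numbers. Reads of a near-identical Trp53 pseudogene, where there are any, could not be told apart from Trp53.

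Among the genes that act on the cycle, Cdkn1a (chr17:29090976-29100727), the cyclin-dependent kinase inhibitor p21, stood at 1.77 and 2.67 CPM in WT and 3.48 and 3.62 in ACC1 KO. Ccng1 (chr11:40748552-40755311), cyclin G1, which works with a phosphatase on Mdm2, stood at 46.7 and 36.5 CPM in WT and 47.4 and 36.3 in ACC1 KO, so the pairs of equal number were closer than the pairs of equal genotype. Phlda3 (chr1:135766119-135769136), a PH-domain protein that competes with Akt for membrane lipid, stood at 3.71 and 3.42 CPM in WT and 7.24 and 6.06 in ACC1 KO. The WT and ACC1 KO libraries did not overlap for Phlda3 or for Cdkn1a.

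Trp53inp1 (chr4:11156431-11174379), a nuclear protein with a part in p53 phosphorylation and in autophagy, stood at 86.3 and 59.4 CPM in WT and 82.4 and 62.6 in ACC1 KO. Zmat3 (chr3:32334792-32366014), a zinc finger protein that binds RNA, stood at 12.2 and 10.3 CPM in WT and 11.8 and 9.80 in ACC1 KO. For both genes the libraries numbered 1 were above those numbered 2. Sesn2 (chr4:132492032-132510501), a sestrin that senses leucine and restrains mTORC1, stood at 2.91 and 2.64 CPM in WT and 2.16 and 3.71 in ACC1 KO, with ACC1 KO on both sides of WT. Eda2r (chrX:97333840-97377216), a receptor of the TNF receptor family, gave 3 UMIs in 3 cells, 2 in WT 2 and 1 in ACC1 KO 2, and was in no test. Its 0 UMIs in WT 1 and ACC1 KO 1 allow up to 0.127 and 0.104 CPM, by 3 counts of the total. The plot of levels over all iNKT cells shows these values. Because UMIs are taken at the 3′ end, 1 per molecule, they do not scale with transcript length.

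**Figure D1:**
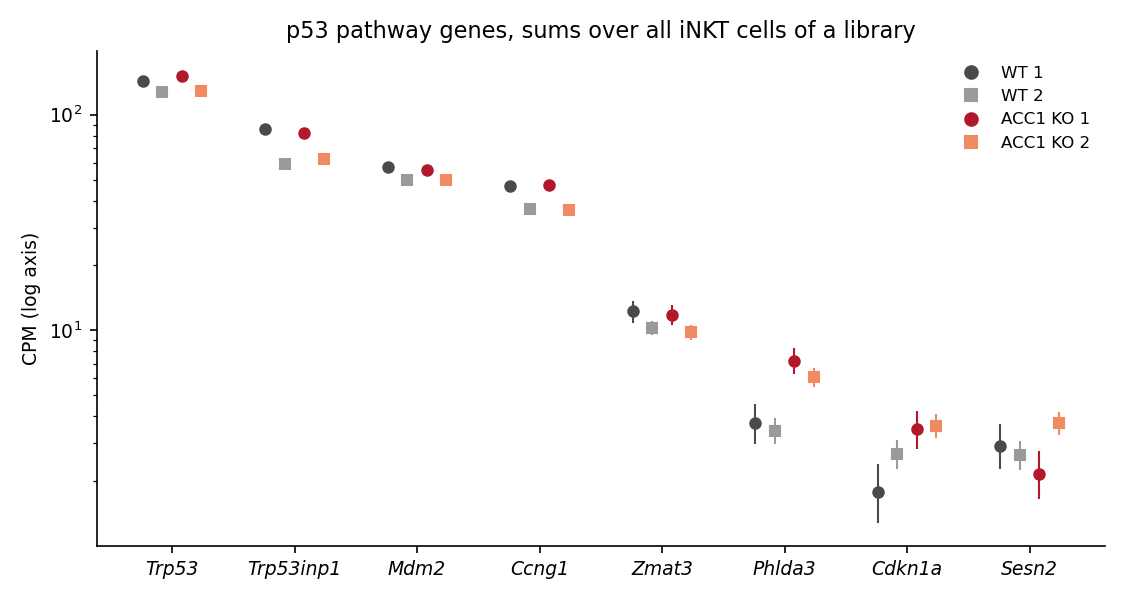
CPM (log axis) of 8 members over all iNKT cells of each library; points are libraries and lines are 95% exact Poisson intervals, which cover counting error only. Phlda3 sits at 3.71 and 3.42 in WT and at 7.24 and 6.06 in ACC1 KO, while Trp53inp1 and Ccng1 follow the library number.

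With division the members moved in both directions. Dividing cells are those of the 3 clusters led by cycle genes, with 108 cells of WT 1, 381 of WT 2, 315 of ACC1 KO 1 and 538 of ACC1 KO 2. Lists of 4 values below keep that order. Cdkn1a and Phlda3 rose in them and Trp53inp1 fell, each beyond the spread between libraries. Ccng1 rose slightly, though it passed within neither iNKT type (below). Of 8 members tested 4 passed, beside 53.4% of all 12856 genes, so the number of calls is near the background and only the sizes and directions describe the members. Each test was edgeR's quasi-likelihood test on sums per library, with library as a block and Benjamini-Hochberg adjustment over all genes. Its p measures the spread between these libraries, since the labels do not say that they are separate animals.

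Cdkn1a stood at 10.4, 7.74, 9.11 and 8.35 CPM in dividing cells, against 1.33, 2.18, 2.83 and 2.90 in the non-dividing cells. The ranges were far apart in every library, and the log2 fold change was 1.79 ± 0.22 (SE; edgeR adjusted p = 2.2e-07). In WT 1 the 12 dividing UMIs of Cdkn1a came from 2 cells, with 8 and 4 each. The other libraries had 44, 27 and 73 UMIs in 25, 18 and 51 cells, and without WT 1 the Cdkn1a fold change was 1.62 (edgeR adjusted p = 2.6e-06). Within the dividing cells, Cdkn1a UMIs gathered in the mitotic cluster of iNKT1 type, where they numbered 0, 25, 20 and 44 in 14, 75, 69 and 147 cells. That is 21.0, 28.0 and 19.0 CPM in WT 2, ACC1 KO 1 and ACC1 KO 2. In the S-phase cluster of that type Cdkn1a stood at 7.17, 2.20, 2.0 and 4.58 CPM, the first value being the 4 UMIs of a single WT 1 cell. This split between clusters was seen in the values and was not itself tested. Over dividing cells of both types, the G2/M against S comparison given below did not call Cdkn1a (0.34 ± 0.46).

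Phlda3 stood at 19.8, 10.7, 17.5 and 13.6 CPM in dividing cells, against 2.89, 2.71, 6.05 and 4.91 in non-dividing cells. No dividing value reached down to a non-dividing one, and the log2 fold change was 1.78 ± 0.19 (edgeR adjusted p = 3.1e-08). Trp53inp1 went the other way, at 45.7, 30.3, 52.0 and 38.0 CPM in dividing and 88.4, 62.2, 85.9 and 66.4 in non-dividing cells. It fell in 4 of 4 libraries, by 0.89 ± 0.07 on the log2 scale (edgeR adjusted p = 9.2e-11). Ccng1 stood at 58.7, 41.9, 54.0 and 39.0 CPM against 46.1, 36.0, 46.6 and 35.9. Its rise of 0.18 ± 0.07 (edgeR adjusted p = 0.0396) was lost with DESeq2 (0.15) and on leaving out WT 1 (0.143), WT 2 (0.165) or ACC1 KO 1 (0.0965).

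Trp53 itself did not pass, at a log2 fold change of 0.06 ± 0.06, and neither did Mdm2 (-0.10 ± 0.07), Zmat3 (0.02 ± 0.13) or Sesn2 (0.07 ± 0.25). Dividing cells were also deeper, with median UMIs of 9036, 12182, 8567 and 14501 against 4621, 6133, 4398.5 and 7165. With all sums thinned to the smallest total, Phlda3 kept its call (1.15, edgeR adjusted p = 0.0033), as did Trp53inp1 (-1.07, 1.6e-11) and Ccng1 (0.48, 0.0076). Cdkn1a had too few UMIs in the thinned sums to be tested, so its rise has no check at equal depth.

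Dividing cells hold more cells of iNKT2 type than non-dividing cells do, so each type was also compared with its own clusters outside the dividing ones. That comparison was added after the values were seen. Within iNKT1 type, the dividing cells numbered 82, 293, 255 and 403. Cdkn1a stood there at 5.63, 8.65, 10.4 and 10.6 CPM, against 1.26, 2.24, 3.20 and 2.92 in iNKT1-like cells, a log2 fold change of 1.85 ± 0.22 (edgeR adjusted p = 3.5e-09). The dividing WT 1 value of Cdkn1a is 4 UMIs of 1 cell. Phlda3 stood at 5.63, 4.33, 12.6 and 7.16 CPM against 1.70, 1.27, 4.14 and 2.89, a rise of 1.52 ± 0.24 (edgeR adjusted p = 1.3e-06). Trp53inp1 fell by 0.66 ± 0.07, from 85.2, 61.3, 83.3 and 65.7 to 52.1, 35.2, 59.1 and 42.3 CPM (edgeR adjusted p = 7.6e-10). In this comparison 5 of 8 members passed, beside 44.6% of all genes. The other two, Mdm2 (-0.21 ± 0.08, edgeR adjusted p = 0.0366) and Zmat3 (-0.47 ± 0.17, 0.0244), fell and lost the call with DESeq2 (0.17 and 0.10) and without WT 2 (0.126 and 0.137) or ACC1 KO 2 (0.546 and 0.156). Ccng1 did not pass there, at 0.02 ± 0.08. Median UMIs of these dividing cells were 8198, 10623, 7916 and 12878, against 4594, 6120, 4341 and 7107 in iNKT1-like cells. Thinned to the smallest total, Trp53inp1 kept its call (-0.56, edgeR adjusted p = 0.0058) and Mdm2 did not (-0.25, 0.314), while Cdkn1a, Phlda3 and Zmat3 had too few UMIs to be tested, so their calls have no check at equal depth.

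Within iNKT2 type, with 26, 88, 60 and 135 dividing cells, 2 of 8 members passed, beside 35.4% of all genes. The iNKT2-like cells set against them had a cycle marker score of 1.40, just under the limit of 1.5 for dividing clusters. In the iNKT1-like clusters that score ran from -0.33 to -0.23. The reference in iNKT2 type thus carried cycle RNA itself, and its part in these folds was not tested. Cdkn1a rose by 2.01 ± 0.44 (edgeR adjusted p = 4.5e-04), from 0.602, 1.55, 1.61 and 1.69 CPM to 17.8, 6.31, 5.35 and 4.44. The WT 1 value is 8 UMIs of 1 cell. WT 2 and ACC1 KO 2 each had 14 Cdkn1a UMIs in 7 cells, with up to 6 and 8 in a single cell. ACC1 KO 1 had 4 UMIs in 4 cells. Without WT 1 the Cdkn1a rise was 1.60 (edgeR adjusted p = 0.0054), still on these few cells. Trp53inp1 fell by 1.02 ± 0.13 (edgeR adjusted p = 1.0e-07). Ccng1 did not pass, at -0.09 ± 0.11 (edgeR adjusted p = 0.58). Phlda3, already high in iNKT2-like cells, stood at 42.3, 20.7, 32.1 and 25.0 CPM in dividing ones. Phlda3 rose there by 0.35 ± 0.19 and did not pass (edgeR adjusted p = 0.16). Without WT 2 it passed (0.54, edgeR adjusted p = 0.0445), and thinned its fold was -0.04 (0.948). Cdkn1a was not tested when thinned. The plot of division within each type shows the 4 libraries.

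**Figure D2:**
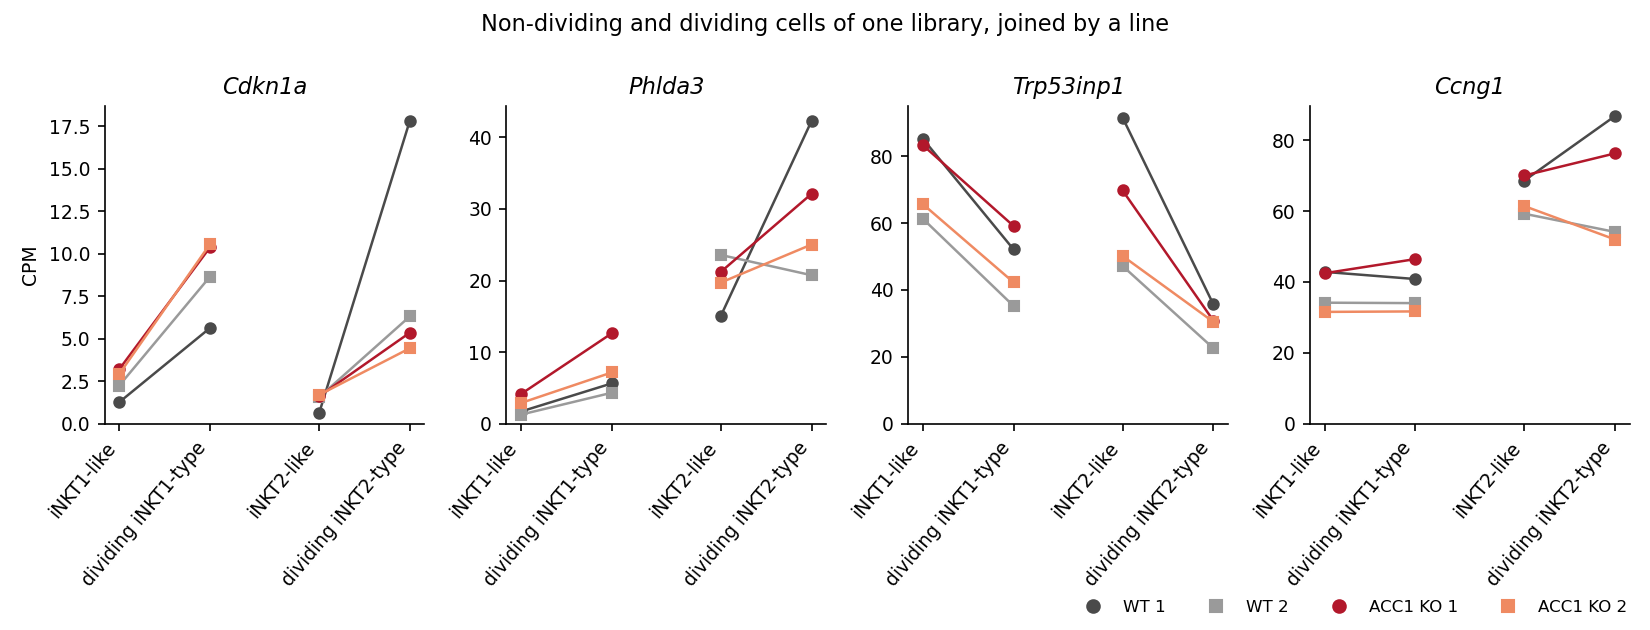
CPM of Cdkn1a, Phlda3, Trp53inp1 and Ccng1 in iNKT1-like and iNKT2-like cells and in the dividing cells of each type. Each line joins the cells of a single library. Cdkn1a goes up and Trp53inp1 goes down in every library of both types, while Phlda3 goes from 1.27 to 4.14 up to 4.33 to 12.6 in iNKT1 type and starts at 15.1 to 23.6 in iNKT2 type. In WT 1 the dividing Cdkn1a UMIs came from 1 cell in each type.

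Among dividing cells, those with most cycle UMIs from G2/M genes were set against those with most from S-phase genes. The limits are a range of a score and not a cell type. The G2/M cells numbered 19, 82, 73 and 144 and the S-phase cells 73, 242, 196 and 294. Trp53 stood at 143, 140, 110 and 113 CPM in G2/M and 182, 135, 166 and 147 in S phase, and fell by 0.39 ± 0.12 (edgeR adjusted p = 0.0107). Ccng1 rose by 0.47 ± 0.15 (0.0122), Mdm2 by 0.36 ± 0.14 (0.0446) and Phlda3 by 0.64 ± 0.25 (0.0497). That makes 4 of 7 members, beside 34.5% of all genes. DESeq2 called 0 members in that phase comparison, with 3198 genes called by edgeR. With division set by cycle UMIs in place of clusters, 0 members passed and the Phlda3 fold turned to -0.43 (edgeR adjusted p = 0.27), beside 0.09 for Ccng1, 0.42 for Mdm2 and -0.28 for Trp53. Thinned to the smallest total, none of Trp53 (-0.36), Mdm2 (0.13) and Ccng1 (0.20) passed, and Phlda3 had too few UMIs to be tested. The calls of Trp53 and Mdm2 were lost without ACC1 KO 1 (0.107 and 0.135) or ACC1 KO 2 (0.109 and 0.279), and those of Mdm2 and Ccng1 without WT 2 (0.0795 and 0.0943). Phlda3 lost its call without WT 1 (0.135), WT 2 (0.147) or ACC1 KO 1 (0.133). Cdkn1a did not pass (0.34 ± 0.46).

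Across the classes outside the dividing clusters, Phlda3 separated iNKT2-like from iNKT1-like cells by more than any other member. iNKT2-like cells make IL-4 and iNKT1-like cells carry NK receptors and T-bet. There were 180, 206, 372 and 508 iNKT2-like cells and 3766, 7573, 4099 and 5852 iNKT1-like cells. Of 8 members tested 6 passed, beside 54.6% of all genes, 4 of them higher in iNKT2-like cells (Phlda3, Ccng1, Sesn2 and Zmat3) and 2 lower (Cdkn1a and Trp53inp1).

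Phlda3 stood at 15.1, 23.6, 21.2 and 19.7 CPM in iNKT2-like and 1.70, 1.27, 4.14 and 2.89 in iNKT1-like cells, a log2 fold change of 3.05 ± 0.29 (edgeR adjusted p = 8.7e-06). The classes were well apart in every library. Ccng1 stood at 68.6, 59.2, 70.1 and 61.4 CPM against 42.8, 34.2, 42.5 and 31.6, and rose by 0.77 ± 0.08 (edgeR adjusted p = 6.6e-08) with no overlap. Both calls held under each alternative run, with Phlda3 folds of 2.61 to 3.42 and Ccng1 folds of 0.64 to 0.80.

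The other calls between these classes were weaker. Sesn2 stood at 9.03, 5.89, 3.86 and 3.38 CPM in iNKT2-like and 2.25, 2.56, 1.62 and 3.80 in iNKT1-like cells, with ACC1 KO 2 against the direction. Its 0.87 ± 0.34 (edgeR adjusted p = 0.0419) did not pass without WT 1 (0.193), WT 2 (0.184) or ACC1 KO 1 (0.141). Zmat3 rose by 0.47 ± 0.16 (0.0198), lost without ACC1 KO 1 (0.26, adjusted p = 0.261), without WT 2 (0.0627), without ACC1 KO 2 (0.0657) and with DESeq2 (0.11). Cdkn1a fell by 0.85 ± 0.33 (0.036) on 1, 5, 5 and 12 UMIs in iNKT2-like cells, and lost the call with doublets kept (-0.22, adjusted p = 0.622), with DESeq2 (0.137), without ACC1 KO 1 (0.0951) and without ACC1 KO 2 (0.152). Trp53inp1 fell by 0.27 ± 0.09 (0.0211), at 91.5, 47.2, 69.7 and 50.1 against 85.2, 61.3, 83.3 and 65.7 CPM, with WT 1 going the other way. It lost the call with finer clusters (0.0013, adjusted p = 0.992), doublets kept (-0.02, 0.864), DESeq2 (0.0589), without ACC1 KO 1 (0.0508) and without ACC1 KO 2 (0.0967). Mdm2 (0.17 ± 0.08, adjusted p = 0.0578) and Trp53 (-0.05 ± 0.07) did not pass.

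The iNKT2-like cells outside the dividing clusters also carried more cycle RNA and were deeper. Of the S-phase list 24 of 26 genes tested were higher and 1 lower in iNKT2-like cells, with a median of 1.91, and of the G2/M list 18 of 21 were higher with a median of 1.84. Median UMIs were 8596.5, 14750.5, 7698 and 13369 against 4594, 6120, 4341 and 7107. Thinned to the smallest total, the Phlda3 fold was 3.42 (edgeR adjusted p = 2.2e-11) and that of Ccng1 was 0.69 (1.0e-05). The part of cycle RNA in these differences was not tested.

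In iNKT17-like cells, the IL-17 makers, 80, 79, 24 and 31 cells were found. Of 8 members 3 passed against iNKT1-like cells, beside 23.2% of all genes. Phlda3 had 5 and 11 UMIs in WT (9.39 and 16.3 CPM) and 0 in both ACC1 KO libraries, where 3 counts would be 19.5 and 9.39 CPM. Its fold of 1.99 ± 0.55 (edgeR adjusted p = 0.0022) fell to 0.73 (adjusted p = 0.70) without WT 2 and to 1.29 with DESeq2 (0.457). Ccng1 stood at 63.9, 51.7, 84.3 and 50.1 CPM, above iNKT1-like cells in 4 of 4 libraries, and rose by 0.54 ± 0.19 (0.0218). That call was lost without WT 1 (0.113), WT 2 (0.131) or ACC1 KO 1 (0.0609) and with DESeq2 (0.0561). Trp53 stood at 109, 103, 156 and 90.8 CPM and fell by 0.45 ± 0.14 (0.0088), with ACC1 KO 1 slightly above its iNKT1-like value, and the call was lost without WT 1 (0.0648) or ACC1 KO 2 (0.0579).

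In iNKT0-like cells (77, 47, 128 and 96), Trp53, Mdm2, Ccng1, Zmat3 and Trp53inp1 had their highest mean plain CPM among the classes. Of these, Trp53inp1 and Ccng1 passed against iNKT1-like cells. Trp53inp1 stood at 213, 100, 175 and 116 CPM, a rise of 0.61 ± 0.14 over iNKT1-like cells (edgeR adjusted p = 7.5e-05). Ccng1 stood at 71.1, 70.8, 84.1 and 99.1 CPM, a rise of 0.78 ± 0.17 (edgeR adjusted p = 2.6e-05). In the fit that rise was close to the 0.77 ± 0.08 of iNKT2-like cells. Both genes were above the iNKT1-like values in 4 of 4 libraries, and both calls held under each alternative run. These were 2 of 8 members, beside 38.6% of all genes. Plain CPM gave larger differences (0.98 and 1.10), and for Trp53 the sign differed between plain CPM (0.34) and the fit (-0.06). Co-sorted double-positive thymocytes, left out of the iNKT cells, had Trp53inp1 at 353 and 358 CPM in WT and 163 and 173 in ACC1 KO, and the part of such RNA in the iNKT0-like level was not tested.

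Interferon-responding cells (400, 734, 673 and 778) differed from iNKT1-like cells in 1 of 8 members, beside 18.8% of all genes. Trp53inp1 stood at 105, 81.2, 107 and 86.2 CPM there, above iNKT1-like cells in 4 of 4 libraries, and rose by 0.45 ± 0.05 (edgeR adjusted p = 5.2e-10).

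Set in order by the mean CPM of 4 libraries, Trp53 ran from 175 ± 16.7 CPM (SD, n = 4) in iNKT0-like cells to 115 ± 28.3 in iNKT17-like cells, and all neighbours in that order overlapped. Mdm2 ran from 71.9 ± 17.8 in iNKT0-like to 50.9 ± 6.34 in dividing cells, also with all neighbours overlapping. Cdkn1a ran from 8.89 ± 1.13 in dividing cells to 0.935 ± 1.87 in iNKT0-like cells, and dividing cells were clear of the next class, iNKT17-like. Ccng1 ran from 81.3 ± 13.4 in iNKT0-like to 37.8 ± 5.76 in iNKT1-like cells. Its lowest iNKT0-like library (70.8) was only just above the highest iNKT2-like library (70.1). The fits of Ccng1 over iNKT1-like cells were 0.78 in iNKT0-like and 0.77 in iNKT2-like cells. Phlda3 ran from 19.9 ± 3.60 in iNKT2-like to 2.09 ± 0.692 in interferon-responding cells, and Trp53inp1 from 151 ± 52.6 in iNKT0-like to 41.5 ± 9.42 in dividing cells, in both with all neighbours overlapping. The first place of iNKT0-like cells for Trp53 and Mdm2 is one of plain CPM: against iNKT1-like cells, plain CPM gave log2 differences of 0.34 and 0.44, where the fit gave -0.06 and 0.05 and neither passed. The plot of levels by class shows every library.

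**Figure D3:**
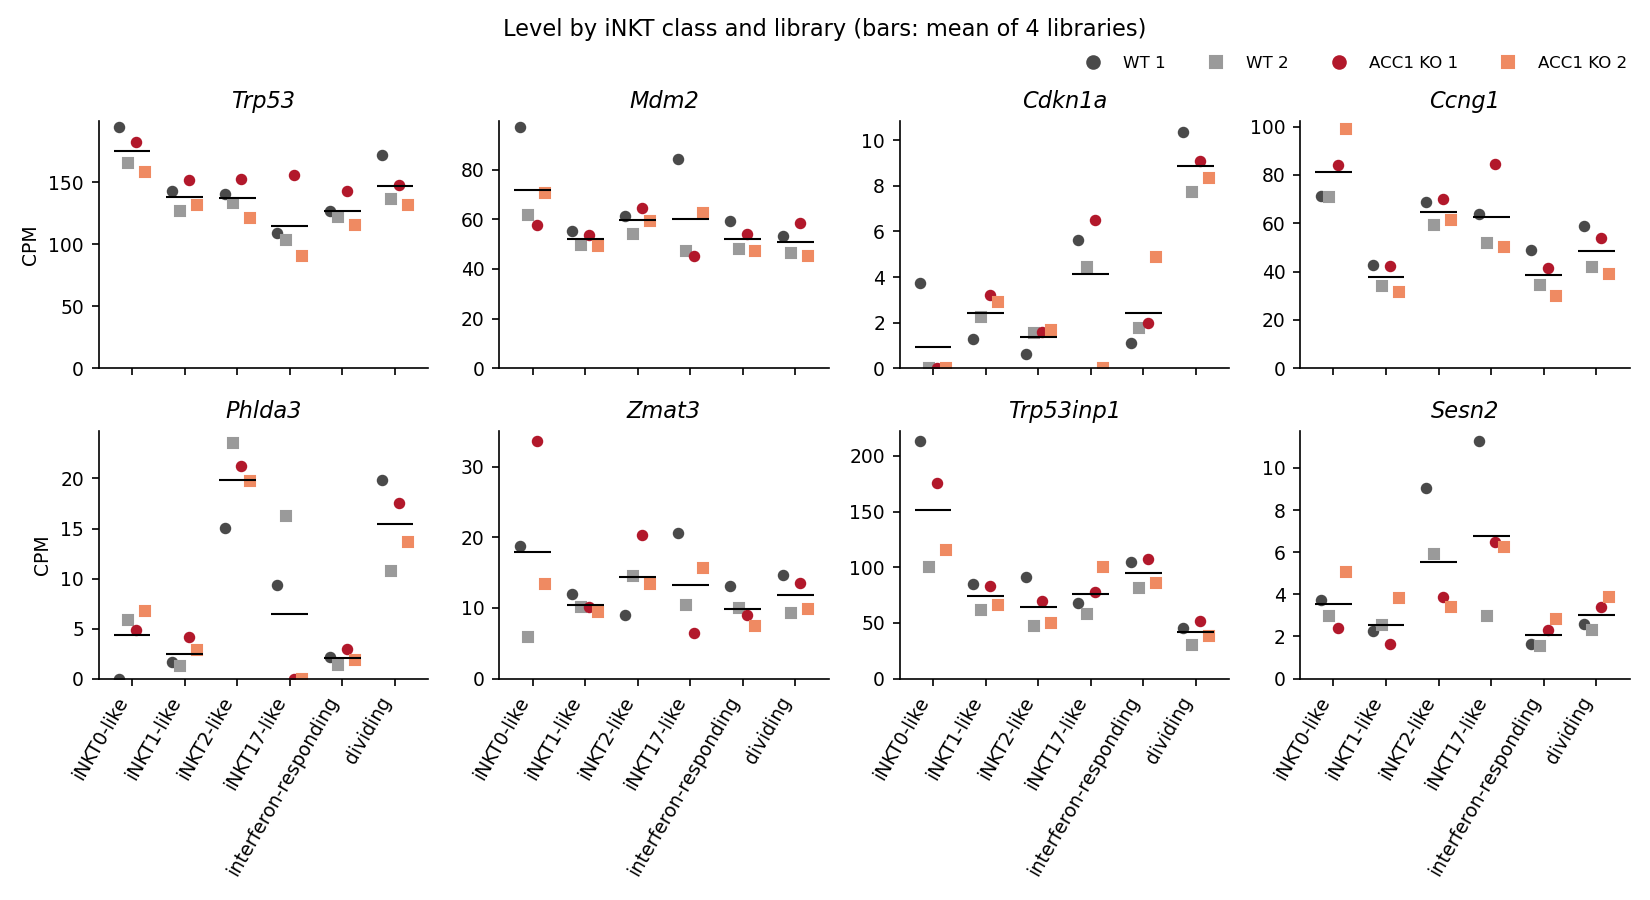
CPM of 8 members in each iNKT class; points are libraries and bars are means of 4 libraries, with 77, 47, 128 and 96 iNKT0-like and 80, 79, 24 and 31 iNKT17-like cells as the thinnest classes. By mean CPM, Phlda3 is highest in iNKT2-like and dividing cells and Cdkn1a in dividing cells. Trp53, Mdm2, Ccng1, Zmat3 and Trp53inp1 have their highest mean in iNKT0-like cells, and only Trp53inp1 and Ccng1 passed there against iNKT1-like cells.

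Between genotypes no member passed the test, which has no term for the library number, in any of the 5 groups of cells. Deviations of same-numbered libraries correlated (r = 0.699). With the number as a block, edgeR called Phlda3 over all iNKT cells, and Phlda3 and Cdkn1a in iNKT1-like cells, as the closing part gives. In the test without that block, Phlda3 had the lowest adjusted p of the members over all, non-dividing and iNKT1-like cells. Over all iNKT cells 0 of 8 members passed, beside 0.00679% of all genes (1 of 14726), with 707 genes at an unadjusted p under 0.05, Phlda3 among them, and DESeq2 calling 68 higher and 36 lower. Phlda3 had a log2 fold change of 0.94 ± 0.20 (edgeR adjusted p = 0.586), which was 1.05 within the libraries numbered 1 and 0.82 within those numbered 2. DESeq2 gave 0.95 with an adjusted p of 0.144, and edgeR without a filter on low counts gave 0.0199. Cdkn1a had 0.69 ± 0.30, or 1.05 and 0.43 within numbers. The other 6 members lay between -0.01 (Zmat3) and 0.15 (Sesn2).

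Class mix is part of the sum over all cells. iNKT2-like cells, where Phlda3 is high, made up 3.90% and 2.28% of WT and 6.63% and 6.51% of ACC1 KO cells, and dividing cells 2.34% and 4.22% against 5.61% and 6.89%. The dividing share differed by 2.97 points (exact permutation test, two-sided, p = 0.33, the smallest that 2 against 2 libraries allow). With each library given the same mix of classes, the Phlda3 difference was 0.40 (edgeR adjusted p = 1.0). Fewer cells of a type and less RNA per cell cannot be told apart in a sum over all cells.

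Inside iNKT1-like cells the Phlda3 values were 1.70 and 1.27 CPM in WT (31 and 63 UMIs) and 4.14 and 2.89 in ACC1 KO (79 and 127 UMIs). The log2 fold change was 1.34 ± 0.30 (edgeR adjusted p = 0.678; 1.36 and 1.20 within numbers). No member passed that test there, beside 0.00732% of all genes, with 508 genes at an unadjusted p under 0.05 and DESeq2 calling 62 higher and 23 lower. The iNKT1-like cells of the genotypes lie in different clusters: one cluster held 3.24% and 2.64% of them in WT and 32.0% and 36.7% in ACC1 KO. Taken cluster by cluster, both ACC1 KO libraries were above both WT libraries in each of the 6, on 28 to 75 Phlda3 UMIs a cluster. Those UMIs are pooled over the 4 libraries, and some WT values rest on very few. WT 1 had 0 CPM in a cluster where it held 224 cells. In the cluster of the shares just named, WT stood at 1.60 and 1.45 CPM on 122 and 200 cells. In the cluster richest in Phlda3 the values were 2.98 and 1.86 against 7.01 and 4.23 CPM, and in the lowest 0.936 and 0.540 against 2.43 and 2.35. Cdkn1a was higher in both ACC1 KO libraries than in both WT libraries in 2 of the 6 clusters. It was lower in the cluster of the shares named above, at 8.01 and 3.62 CPM in WT against 1.85 and 3.30 in ACC1 KO. That cluster held 122 and 200 WT cells against 1313 and 2150 ACC1 KO cells. Few of its 77 Cdkn1a UMIs were therefore from WT. Over all iNKT1-like cells Cdkn1a stood at a fold of 0.83 ± 0.36 (1.41 and 0.42 within numbers).

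**Figure D4:**
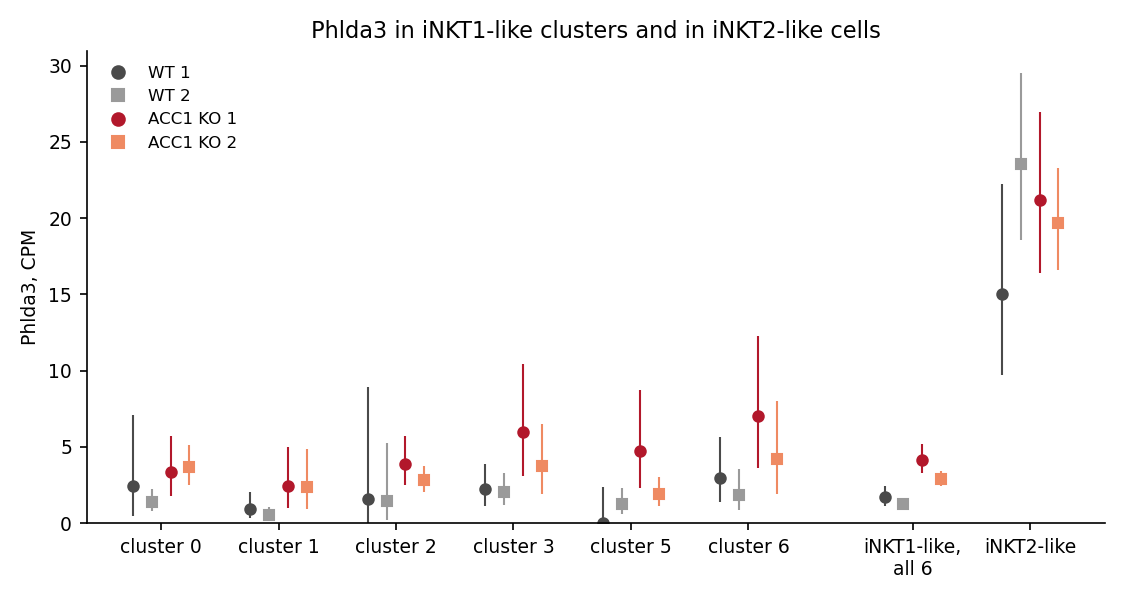
CPM of Phlda3 in each of the 6 iNKT1-like clusters, in all 6 together and in iNKT2-like cells; points are libraries and lines are 95% exact Poisson intervals (counting error only). Both ACC1 KO libraries lie above both WT libraries in each iNKT1-like cluster, while in iNKT2-like cells the 4 libraries lie at 15.1, 23.6, 21.2 and 19.7.

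In iNKT2-like cells the Phlda3 genotypes overlapped (15.1 and 23.6 against 21.2 and 19.7 CPM; 0.03 ± 0.29). There 0 of 7 members passed, beside 0% of all genes (0 of 10338), with 258 at an unadjusted p under 0.05. Sesn2 had the lowest fold, at -1.01 ± 0.45 (unadjusted p = 0.0445, edgeR adjusted p = 1.0). The difference of the Phlda3 genotype effect between the classes was -1.31 ± 0.35 (unadjusted p = 4.8e-04, edgeR adjusted p = 0.115), and no member passed that test, beside 0.241% of all genes. Without WT 1 it was -1.70 and passed (edgeR adjusted p = 0.0041), and without WT 2 it was -0.69 and did not.

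Non-dividing cells gave Phlda3 a genotype fold of 1.03 ± 0.21 (edgeR adjusted p = 0.468) and Cdkn1a one of 0.73 ± 0.33, with 0 of 8 members past the test beside 0.00692% of all genes. Dividing cells gave 0.18 ± 0.32 and 0.03 ± 0.32, with 0 of 8 members beside 0.0366%. For Phlda3 the dividing genotypes overlapped (19.8 and 10.7 against 17.5 and 13.6 CPM). The difference of the genotype effect between dividing and non-dividing cells was -0.80 ± 0.33 for Phlda3 (edgeR adjusted p = 0.50), with no member past the test, beside 0.642% of all genes. Trp53 and Mdm2 had genotype folds between -0.11 and 0.16 in all 5 groups of cells.

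Beside the genotype folds, 13 of 13 genes of a list of dissociation stress were above 0 over all iNKT cells (median 0.33), as were 15 of 16 genes of the integrated stress response (median 0.35), which also drives Sesn2, and 0 genes of both lists passed. S-phase genes were above 0 in 25 of 26 and G2/M genes in 28 of 28, with medians of 0.31 and 0.85 and 0 past the test. Median mitochondrial shares were 3.08% and 1.79% in WT and 2.50% and 1.35% in ACC1 KO. The part of these in the Phlda3 values was not tested.

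The rest of the pathway was followed in lists of other p53 targets, p53 regulators, kinase inhibitors and family relatives. Of 32 other p53 targets tested between genotypes over all iNKT cells 0 passed and 16 were above 0, with a median of 0.00 (all genes, -0.01). The smallest unadjusted p values were those of the death genes Pmaip1 (1.40 ± 0.39) and Bbc3 (0.98 ± 0.28), with edgeR adjusted p of 0.776 and 0.789. Of 22 regulators 0 passed (median -0.01), as did 0 of 6 kinase inhibitors (median 0.12) and 0 of 9 relatives (median 0.01).

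With division, the other p53 targets went both ways, with 9 of 31 up and 11 down (median -0.04, all genes -0.02). Beside these counts and those of the lists that follow, 53.4% of all genes passed in either direction. Polh, a polymerase that copies past damaged bases, rose by 1.24 ± 0.10 and Pidd1, which responds to DNA damage and extra centrosomes, by 2.33 ± 0.22. Btg2, an antiproliferative gene, fell by 0.91 ± 0.06 and Bbc3 by 1.07 ± 0.08. Of the regulators 6 of 22 rose and 8 fell, led by the checkpoint kinases Chek1 (3.99 ± 0.15) and Chek2 (2.43 ± 0.15) and by Cdkn2a (3.80 ± 0.23), whose 3′ counts do not tell p19Arf, the Mdm2 inhibitor, from p16Ink4a. Of the other kinase inhibitors 4 of 6 rose, Cdkn2c by 2.65 ± 0.11 and Cdkn2d by 1.13 ± 0.07, while Cdkn1b, p27, fell by 0.54 ± 0.06. So Cdkn1a went with Cdkn2c and Cdkn2d and against Cdkn1b. Of the relatives 1 of 9 rose (Zmat2, 0.23 ± 0.06) and 5 fell, among them Sesn3 (-0.27 ± 0.06), Sesn1 (-0.42 ± 0.08) and Mdm4 (-0.26 ± 0.06), each of these with an edgeR adjusted p no higher than 0.0020.

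Between iNKT2-like and iNKT1-like cells, 8 of 30 other p53 targets were higher and 9 lower (median -0.12, all genes 0.00). Beside these counts and those of the lists that follow, 54.6% of all genes passed in either direction. Fas, the death receptor, rose by 0.99 ± 0.10. Btg2 fell by 0.99 ± 0.09, Bbc3 by 0.96 ± 0.11 and Rrm2b, a ribonucleotide reductase subunit, by 1.06 ± 0.12. Of the regulators 8 of 22 were higher and 6 lower, with Chek1 at 3.06 ± 0.23 and Cdkn2a at 3.58 ± 0.38 among the higher and Sirt1, a deacetylase, at -0.82 ± 0.11 among the lower. Of the kinase inhibitors 4 of 6 were higher and Cdkn1b lower (-0.36 ± 0.08). Among the relatives 2 of 9 were higher and 3 lower: Sesn3 (0.58 ± 0.07) and Phlda1 (0.99 ± 0.14) rose, while Sesn1 (-0.53 ± 0.08) and Ccng2 (-0.70 ± 0.14) fell. Phlda1 and Phlda3 thus shared a direction, and the cyclins Ccng1 and Ccng2 went opposite ways.

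Genes whose levels ran most like a member's were sought over 21 sums of a class and a library, each of at least 50 cells, among 5998 genes of at least 20 CPM. The sums share libraries and depth, so the coefficients are descriptions. Trp53inp1 ran most like Mcl1 (r = 0.932), Klhl24 (0.924) and Tespa1 (0.911). Ccng1 ran most like Sub1 (0.924), Itgb1bp1 (0.921) and Trrap (0.914). For Trp53 they were Fam133b (0.905), Bnip2 (0.894) and Twistnb (0.892), and for Mdm2 Chmp1b (0.885), Fbxo28 (0.883) and Zfp322a (0.881).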

How the data were processed

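The 4 libraries were made with a 10x 3′ kit (v3.1 chemistry), per the labels' protocols, and processed with Cell Ranger 7.0.0 on mm10, per the submitters' processing notes. The authors deposited raw UMI counts per gene and cell barcode. Of 30455 barcodes, cells with at least 500 genes, 1000 UMIs and under 10% mitochondrial UMIs were kept, doublets were scored against simulated ones and removed (0.8% per 1000 cells), and 28247 cells were clustered (leidenalg 0.10.2, resolution 1, 2000 variable genes, 30 components, scikit-learn 1.9.0). Co-sorted thymocytes, B cells and myeloid cells were left out. UMIs were summed per library and class and tested with edgeR 4.0.16 (TMM, filterByExpr, quasi-likelihood F test, Benjamini-Hochberg, threshold 0.05) in R 4.3.3, with library as a block between states of the same libraries. DESeq2 1.42.0 was an alternative, as were other filters, thinned sums, other cell limits, cluster resolutions of 0.5 and 2 and leaving out each library. With a library left out, the lone library of its genotype is assumed to vary like the other genotype's. The models were tested on simulated counts. The genes named are the members, up to 4 genes with the smallest p of each list, and the 3 most alike genes. The members and the 8 lists (other p53 targets, regulators, kinase inhibitors, relatives, integrated stress response, S phase, G2/M, dissociation stress) were chosen with earlier results of these data known. Sequences come from RefSeq promoters of GRCm38.p6.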

Additional observations from a re-analysis of the deposited data

How the results depend on the processing

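Over the 15 comparisons, 40 fold changes of members were followed through 555 alternatives, of which 453 kept direction and side of the threshold, 79 kept direction but lost the call, 9 gained one and 14 changed sign. Of 78 further fold changes that had not passed, 43 had another sign in at least 1 alternative and 5 passed in at least 1. In dividing cells the genotype fold of Cdkn1a was -0.057 with division set by cycle UMIs and ran from -0.18 (without WT 2) to 0.15 (without WT 1), with -0.019 without ACC1 KO 1. That of Phlda3 was -0.24 thinned, -0.12 with division set by cycle UMIs, and -0.30 (without WT 2) to 0.50 (without WT 1). In iNKT2-like cells the genotype fold of Phlda3 was -0.068 thinned, -0.016 under 5% mitochondrial UMIs, and -0.22 (without WT 1) to 0.45 (without WT 2), with -0.0023 without ACC1 KO 1. The phase fold of Phlda3 was -0.43 with division set by cycle UMIs, and the iNKT2-like fold of Trp53inp1 was 0.0013 at resolution 2. The interaction of genotype with division was 0.56 for Cdkn1a thinned, and that with class ran for Cdkn1a from -0.42 (without WT 1) to 0.051 (without WT 2). The causes of these changes were not tested.

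The number of members called between genotypes, 0 in each group of cells, became 1 over all, non-dividing and iNKT1-like cells without a filter on low counts. For division it went from 4 to 2 with only genes averaging 10 CPM or more, where Cdkn1a and Phlda3 are untested. For phase, 4 became 0 with DESeq2, thinned or with division set by cycle UMIs, and 2 without a filter, at 10 CPM, with doublets kept, at resolution 2 or with phase limits of 1/2, and 1 to 4 without single libraries. Between iNKT2-like and iNKT1-like cells, 6 became 3 with DESeq2 or thinned and 2 to 5 without single libraries. For iNKT17-like cells, 3 became 1 with DESeq2, 0 thinned and 1 to 2 without single libraries. The interaction with class gave 0 to 1 without single libraries. Within iNKT1 type, 5 became 3 with DESeq2, 2 at 10 CPM, 1 thinned and 3 to 5 without single libraries, and within iNKT2 type, 2 became 1 at 10 CPM or thinned. In these thinned sums Cdkn1a was not tested in either type, nor Phlda3 and Zmat3 in iNKT1 type.

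The replicate numbers share sex and depth, and the labels do not say that they pair animals, so they were no block in the genotype tests. Deviations of same-numbered libraries correlated at r = 0.699 over 14726 genes. With the replicate number as a block, edgeR called 662 genes higher and 370 lower over all iNKT cells, and the members called were 1 (Phlda3, 0.92, adjusted p = 0.0025), 2 in non-dividing and 2 in iNKT1-like cells (Phlda3, 1.31, 1.1e-07; Cdkn1a, 0.76, 0.0057). Depth limits Eda2r (3 UMIs) and, in the small classes, Cdkn1a and Phlda3, and 2 libraries a genotype limit every genotype test.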
